A study of Homo sapiens with 4 samples.

Results

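Metallothioneins are small, cysteine-rich proteins that bind zinc and copper and also trap toxic metals such as cadmium. Zinc switches their genes on through MTF1, a zinc-sensing transcription factor that binds short metal response elements in their promoters, and glucocorticoids, oxidants and inflammatory cytokines can raise them as well. In breast epithelium and its tumours MT2A and several MT1 isoforms are the usual members, whereas MT3 is best known from brain and MT4 from stratified epithelium. The members described here are 8 genes, MT1A, MT1E, MT1F, MT1G, MT1H, MT1M, MT1X and MT2A. They were found as the probesets whose platform annotation names exactly 1 of them, which gave 14 probesets of the 232479 in the deposited table. On this array a probeset groups the few probes that target a single exon or a piece of it. None of the 8 genes lacked a probeset of its own. MT2A and MT1H had 1 each and the other members 2 each, and 1 further probeset was shared by MT1M and the pseudogene MT1JP.

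The samples were 4 exon arrays of T-47D, an established line of luminal breast cancer cells. In the mimic group, 2 arrays came from cells given the p-27-5p mimic, an artificial microRNA, at 200 nM with TurboFect. In the control group, 2 arrays came from cells given a pre-miR negative control, for which the labels state no separate dose. The comparison addresses which transcripts differ between the artificial microRNA and the control. Whether the 2 arrays of a group stand for independent cultures is not stated in the labels, so the replicate error behind each p-value may be technical. With 2 arrays against 2, an exact two-sided permutation test of a single value cannot go below p = 0.333, so tests are limma's, fitted over the whole table with p-values adjusted by Benjamini and Hochberg's method and called under 0.05.

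The line was checked against defining markers, each set against the background level described in the next paragraph. In the control arrays 9 of 9 luminal markers lay above it, as did 2 of the 5 leukocyte markers tested, CD14 and CD3E, and 1 of the 6 fibroblast markers, COL1A1. Limma called 0 markers of these 3 lists, and 3, 1 and 1 of them had an unadjusted p under 0.05, against 20.4% of all genes. The 3 luminal markers were lower with the mimic, PGR at -0.60, KRT19 at -0.48 and ESR1 at -0.42 (log2). CD14 and the fibroblast marker LUM were higher, at 0.46 and 0.80. Over all genes, limma called 363 of 15719 tested (2.31%), with 239 that rose (1.52%) and 124 that fell (0.789%).

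Signal over background was judged from 133 probesets of 13 liver and neuron genes, which this line is not expected to express. The 95th percentile of their group means was 5.97 for mimic and 5.82 for control (log2), and a level at or below it is called near background here. Their median was 3.69 and 3.55, and single probesets reached 9.53 and 8.85. Of the 14 metallothionein probesets, 12 lay near background in both groups. The only 2 above it were the MT2A probeset and 1 of the 2 MT1F probesets. MT1A, MT1E, MT1G, MT1H, MT1M and MT1X therefore had no probeset above background in either group. Each set of probes has its own brightness, so this limit, which sets a probeset against other probesets, is a rough one. For the markers and other named genes the gene's mean was set against the same limit. Levels of different probesets were not read as relative amounts of transcript.

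**Figure D1:**
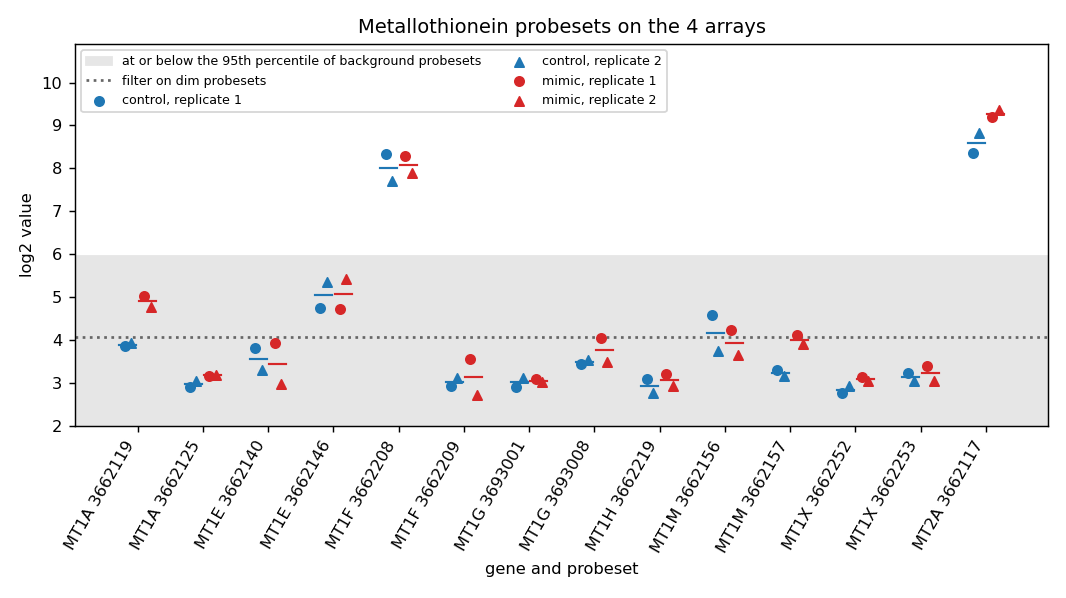
Log2 value (vertical axis) of the 14 metallothionein probesets (horizontal axis, gene and probeset number) on each of the 4 arrays. Circles and triangles are replicates 1 and 2, blue is control and red is mimic, short bars are group means of 2 arrays, the grey band reaches up to 5.97, the higher of the 2 groups' 95th percentiles of background probesets, and the dotted line is the filter at 4.08. Only MT2A and MT1F 3662208 sit above the band.

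MT2A, the isoform that is most widely expressed in human tissues, was higher on both mimic arrays than on both control arrays, but the difference missed the threshold. Its only probeset, 3662117, read 9.20 and 9.36 on mimic replicates 1 and 2 and 8.35 and 8.81 on control replicates 1 and 2 (log2 levels). The groups did not overlap, and the gap between the lower mimic array and the higher control array was smaller than the spread between the control arrays. The group levels were 9.28 ± 0.113 (SD, n = 2) and 8.58 ± 0.330 (SD, n = 2). The difference, mimic minus control, was 0.70 on the log2 scale (SE 0.191, 95% confidence interval 0.21 to 1.18), a 1.62-fold higher level, with a limma p of 0.0136 unadjusted and 0.136 adjusted. Within replicate numbers it was 0.85 and 0.54. With the replicate number as a block the adjusted p was 0.0673.

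Whether MT2A passed depended on the setting of the fit and on the second control array. Without control replicate 2 the difference was 0.93 (adjusted p = 0.0115), and without control replicate 1 it was 0.46 (adjusted p = 0.133). At an unchanged difference of 0.70, MT2A also passed when dim probesets were kept (adjusted p = 0.0302), where 3.26% of all genes were called higher, and when the variance prior followed intensity (adjusted p = 0.0272). In these settings 1433 and 1594 genes passed in all.

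MT1F, the other member above background, had overlapping groups. Its probeset 3662208 read 8.29 and 7.88 on mimic replicates 1 and 2 and 8.33 and 7.69 on the control arrays in the same order (log2 levels). On both sides replicate 1 was the higher array. The difference was 0.07 (SE 0.259, 95% confidence interval -0.58 to 0.73, limma adjusted p = 0.898). With the replicate number as a block the interval was narrower, from -0.22 to 0.37 (adjusted p = 0.635). Within replicate numbers the difference was -0.04 and 0.19. The second MT1F probeset, 3662209, lay near background at 2.71 to 3.56 over the 4 arrays.

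MT1A was the 1 member that passed the threshold. Its brighter probeset, 3662119, read 5.03 and 4.76 with the mimic, against 3.85 and 3.94 in control (log2 levels). Both mimic arrays lay well above both control arrays, and all 4 values lay near background. The levels were 4.90 ± 0.188 (SD, n = 2) and 3.89 ± 0.061 (SD, n = 2), a difference of 1.004 (SE 0.145, 95% confidence interval 0.64 to 1.37) or 2.01-fold, with a limma adjusted p of 0.0407. A fold change on a probeset near background is a ratio of signals that hold background, and it is not a measure of the change in transcript. The filter on dim probesets, at a mean of 4.08, was passed through the mimic arrays alone, since the control mean of 3.89 lies under it. The second MT1A probeset, 3662125, was also higher on both mimic arrays, at 3.16 and 3.19 against 2.91 and 3.04, a difference of 0.20.

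The MT1A call was narrow. Blocking on the replicate number ended it (adjusted p = 0.0534), in a fit where 3.17% of all genes passed. So did leaving out either mimic array, at a difference of 0.87 (adjusted p = 0.196) without replicate 1 and 1.14 (adjusted p = 0.0783) without replicate 2. The same probeset tested among single probesets gave the same difference with an adjusted p of 0.144. With both MT1A probesets averaged, which is the value without a filter, the difference was 0.60 (adjusted p = 0.017).

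MT1E, another MT1 isoform, showed no shift that the spread allowed to be seen. Its brighter probeset, 3662146, read 4.72 and 5.43 with the mimic, against 4.76 and 5.36 in control (log2 levels). Replicate 2 was the higher array in each group by more than the groups differed. The difference was 0.02 (SE 0.309, 95% confidence interval -0.76 to 0.80, limma adjusted p = 0.981), and both group means lay near background. With the replicate number as a block the interval was -0.23 to 0.27 (adjusted p = 0.889). The difference turned negative with quantile normalization, without a filter, without mimic replicate 2 and without control replicate 1, at -0.018, -0.045, -0.34 and -0.28.

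MT1M, MT1X, MT1G and MT1H were too dim to enter the test, since the mean of each of their probesets over the 4 arrays lay under 4.08. The nearest below it was MT1M 3662156, with a mean of 4.05, and the lowest probeset of the 8 members to pass was MT1A 3662119, with 4.395. The other MT1M probeset, 3662157, had the second largest difference of the 14. It read 4.11 and 3.91 with the mimic and 3.29 and 3.17 in control (log2 levels), a difference of 0.78. Both mimic arrays were higher, while on MT1M 3662156 the groups overlapped and the difference was -0.22. Without a filter the limma adjusted p among single probesets was 0.223 for MT1M 3662157 and 0.852 for MT1M 3662156, so the probesets of this gene gave opposite signs and neither passed.

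MT1X, a zinc-inducible isoform, had 1 probeset on which the groups did not overlap. This was 3662252, at 3.13 and 3.05 with the mimic and 2.77 and 2.92 in control (log2 levels), a difference of 0.25. On MT1X 3662253 the groups overlapped and the difference was 0.09. The MT1G probesets had differences of 0.04 and 0.28 and the MT1H probeset one of 0.14, all with overlapping groups. These 5 probesets of MT1G, MT1H and MT1X lay between 2.77 and 4.05 on every array, within the range of the background probesets.

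Over the 14 probesets, 12 had a difference above 0 and 2 below, with a median of 0.13 and a range from -0.22 to 1.004 (log2). Both mimic arrays lay above both control arrays on 5 of them and below on none. That order held for 20.8% of all probesets and the reverse for 23.3%. Of the 133 background probesets, whose median difference was 0.09, 34 had both mimic arrays higher (25.6%). Another count over them gave 13 with a difference of at least 0.5, and the largest was 1.26. At the probeset level limma called 0 of the 4 metallothionein probesets past the filter, against 0.883% of all probesets tested (0.795% higher), and 2 of them had an unadjusted p under 0.05, as had 15.2% of all probesets tested. Without a filter it called 0 of the 14 (0.653% of all probesets), and 3 had an unadjusted p under 0.05, as had 13% of all. At both the probeset and the gene level the 4 past the filter are no fair sample of the family, since MT1A entered through its mimic arrays. The MT1A probeset is 1 of the 2 past the filter with an unadjusted p under 0.05, so no conclusion is drawn from that share. Without a filter all 8 members had a value, with a median difference of 0.16 beside 0.00802 over all 16543 genes. The 11 background genes tested, with the filter, had a larger gene-level median of 0.20, with 8 positive and 3 negative. The median of the members is thus not set apart from that of genes near background. Limma then called 2 of the 8, MT1A and MT2A, both higher. In that setting 1433 of the 16543 genes passed, and 3.26% of all were called higher.

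**Figure D2:**
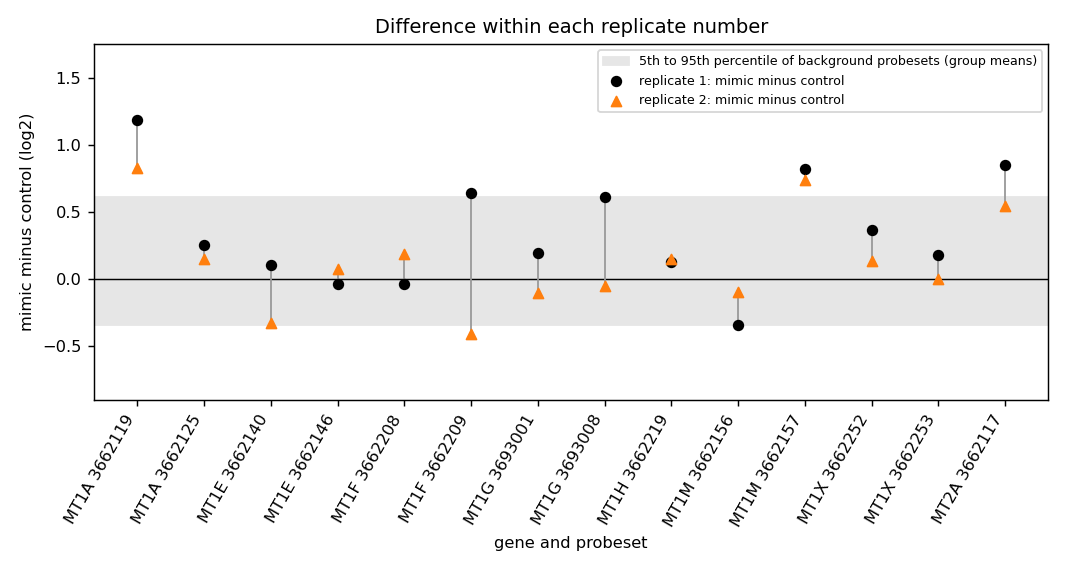
Mimic minus control on the log2 scale (vertical axis) for the 14 metallothionein probesets (horizontal axis), within replicate 1 (circles) and replicate 2 (triangles), joined by a line. The grey band is the 5th to 95th percentile of the group-mean differences of the background probesets, -0.35 to 0.61. MT1A 3662119 and MT1M 3662157 lie above the band in both replicates, and MT2A in replicate 1, at 0.85, but not in replicate 2, at 0.54. MT1F 3662209 lies above it in replicate 1 and below it in replicate 2. The points are differences of single arrays, which vary more than the means of 2 arrays behind the band.

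The other metallothionein genes and pseudogenes of the platform had 12 probesets of their own. Of these, 3 had both mimic arrays above both control arrays (20.8% of all probesets) and 2 had both below (23.3%). Limma called 0 of them with or without a filter, against 0.883% and 0.653% of all probesets. Without a filter 3 had an unadjusted limma p under 0.05, as had 13% of all. Probeset 3662090 of MT4 read 7.10 and 6.78 with the mimic and 6.45 and 5.46 in control (log2 levels). Its difference was 0.98 (probeset-level adjusted p = 0.319). The brighter probeset of MT1IP, a pseudogene, read 6.78 and 7.20 against 5.51 and 6.46, a difference of 1.005 (probeset-level adjusted p = 0.313). Both probesets lay just above background in control. On both the mimic arrays were higher, and the control arrays differed from each other by nearly as much as the groups did. MT3 went the other way on 1 of its 4 probesets, 3662097, with 5.50 and 5.79 on the mimic arrays against 6.40 and 6.28 on the control arrays, a difference of -0.70 (adjusted p = 0.238). The other MT3 probesets had differences from -0.20 to 0.04. The probeset shared by MT1M and MT1JP lay near background on all 4 arrays, at 2.81 to 2.92. Metallothionein transcripts are close copies of one another, so a probeset annotated to 1 of them may also take up RNA of another. The probe sequences were not used here, and how much this contributed was not tested.

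The members lie together in 1 cluster on chromosome 16, where the RefSeq order (GRCh38.p14) runs from MT4 and MT3 through MT2A, MT1E, MT1M, MT1A, MT1F, MT1G and MT1H to MT1X. Genes on either side of the cluster that were tested gave a view of the locus, and were chosen after the values were seen. BBS2, a ciliary protein that precedes MT4, had a difference of 0.000304 (limma adjusted p = 0.9996), and NUP93, a nuclear pore protein that follows MT1X, had 0.03 (adjusted p = 0.927). On the side of BBS2, OGFOD1, NUDT21 and GNAO1 had -0.13, -0.29 and 0.20, and on the side of NUP93, SLC12A3, HERPUD1 and CETP had 0.11, -0.02 and 0.12. None of these 8 neighbours passed, beside 2.31% of all genes tested, so 0 among so few genes says little.

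**Figure D3:**
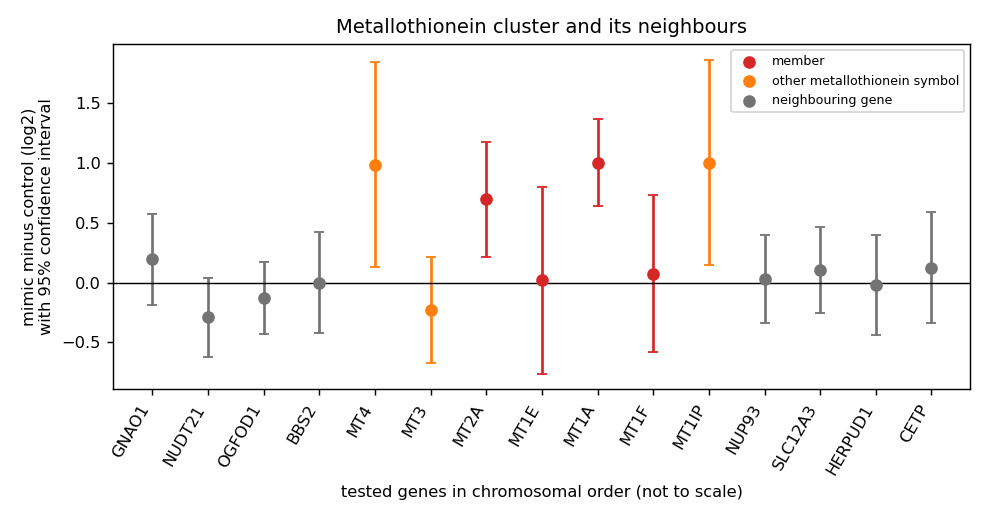
Gene-level difference, mimic minus control on the log2 scale (vertical axis), of the tested genes around the metallothionein cluster in chromosomal order (horizontal axis, not to scale), with limma's 95% confidence intervals. Red marks members, orange other metallothionein symbols and grey neighbouring genes. The intervals of MT4, MT2A, MT1A and MT1IP lie above 0, and only MT1A passed the threshold after adjustment. MT1A lay near background in both groups and entered the test through its mimic arrays alone.

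RefSeq promoter sequences were matched for 3 of the 8 members, MT2A, MT1X and MT1H, and not for MT1A, MT1E, MT1F, MT1G and MT1M. They are shown because MT2A is the member with the clearest signal, and MT1X and MT1H are relatives from the same cluster whose probesets stayed near background. Each is the 250 bases before the gene's start, 5′ to 3′ on the plus strand in GRCh38.p14. Capitals mark the core of the metal response element, searched as TGCACNC or TGCGCNC on both strands.
MT2A: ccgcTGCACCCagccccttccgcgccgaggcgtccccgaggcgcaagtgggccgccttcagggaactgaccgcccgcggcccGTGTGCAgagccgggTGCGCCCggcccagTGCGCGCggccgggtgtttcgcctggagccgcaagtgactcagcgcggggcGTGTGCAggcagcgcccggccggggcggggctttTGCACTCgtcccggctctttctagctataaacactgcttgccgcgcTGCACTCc
MT1X: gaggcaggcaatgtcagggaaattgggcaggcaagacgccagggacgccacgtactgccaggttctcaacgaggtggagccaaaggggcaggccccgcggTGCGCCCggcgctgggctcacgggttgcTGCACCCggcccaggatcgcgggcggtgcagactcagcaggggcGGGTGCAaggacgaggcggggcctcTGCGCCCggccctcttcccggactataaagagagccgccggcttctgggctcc
MT1H: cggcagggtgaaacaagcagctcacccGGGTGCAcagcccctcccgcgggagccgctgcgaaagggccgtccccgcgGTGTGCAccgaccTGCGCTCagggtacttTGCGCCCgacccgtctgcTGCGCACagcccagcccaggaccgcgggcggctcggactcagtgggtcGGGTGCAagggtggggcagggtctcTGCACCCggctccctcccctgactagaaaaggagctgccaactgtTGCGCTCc

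The MT2A window, chr16:56608334-56608583, held 7 matches, of which 5 were on the plus strand. The MT1X window, chr16:56682220-56682469, held 4 matches. The MT1H window, chr16:56669564-56669813, held 8. At least 1 match was present in 24.8% of all 35116 RefSeq promoter windows of this length, and at least 4 in 0.37%. The interferon response core, searched as GAAANNGAA on both strands, was in none of the 3 windows and in 6.88% of all windows. The gamma-activated core TTCNNNGAA, the same on both strands, was in the MT2A window, in lower case above, and in 6.57% of all windows. The MT1H probeset lay near background, at 2.77 to 3.21 on the 4 arrays, and whether the number of matches goes with level was not tested. A match is a stretch of letters, and no binding was measured.

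Zinc transport genes were tested beside the metallothioneins as 25 genes of uptake, export and zinc sensing, of which 23 had a value. MTF1 and SLC39A10 were not analysed here. Limma called 0 of them, beside 2.31% of all genes tested, so 0 calls in a list this short says little. At an unadjusted p under 0.05, 0 rose and 5 fell, against 20.4% of all genes in either direction. Their median difference was -0.08. SLC30A1, the zinc exporter of the plasma membrane that MTF1 induces together with metallothioneins, read 7.61 and 7.74 with the mimic and 7.56 and 7.70 in control (log2 levels). The groups overlapped, and its difference was 0.04 (SE 0.130, 95% confidence interval -0.29 to 0.37, adjusted p = 0.892). SLC39A8, a zinc and manganese importer, read 7.36 and 7.14 with the mimic and 8.26 and 8.05 in control. Both mimic arrays were lower, with a difference of -0.90 (SE 0.149, adjusted p = 0.0548, and 0.0381 with the replicate block). The importers SLC39A9, SLC39A11 and SLC39A1 had -0.54, -0.35 and -0.39 (adjusted p = 0.112, 0.190 and 0.194).

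Copper handling genes were listed in the same way. Of 13 listed, 12 were tested and limma called 0, beside 2.31% of all genes tested. Before adjustment 1 was higher and 2 were lower at p under 0.05, against 20.4% of all genes in either direction. The list median was -0.12. CCS, the chaperone that loads copper into SOD1, had -0.51 (adjusted p = 0.116), COMMD1, a regulator of copper export, had -0.39 (0.163) and the copper exporter ATP7B had -0.36 (0.299). CP, the copper-carrying ferroxidase ceruloplasmin, had 1.03 (SE 0.279, adjusted p = 0.135, and 0.0371 with the replicate block). Its levels of 5.26 with the mimic and 4.23 in control both lay near background.

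Oxidative stress and heat shock genes, which heavy metals and oxidants also induce, gave no calls either, beside 2.31% of all genes tested. These lists are also short, so the absence of calls says little. Of 12 genes of the NRF2 programme tested, limma called 0, while 2 had a higher and 1 a lower value at p under 0.05 before adjustment, a share of 3 in 12 beside 20.4% of all genes, with a list median of 0.03. HMOX1, heme oxygenase and a classic metal-responsive gene, had 0.35 (adjusted p = 0.214). Its levels of 5.66 with the mimic and 5.31 in control lay near background. The cystine transporter SLC7A11 had 0.37 (0.176), OSGIN1 -0.48 (0.117) and the peroxidase PRDX1 -0.24 (0.343). Of 9 heat shock genes tested, limma called 0 and 1, HSF1, had an unadjusted p under 0.05 (20.4% of all genes), with -0.45 (adjusted p = 0.201). The mitochondrial chaperonins HSPE1 and HSPD1 had -1.10 (0.277) and 0.30 (0.285), the co-chaperone DNAJB1 had -0.19 (0.499), and the list median was -0.01.

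**Figure D4:**
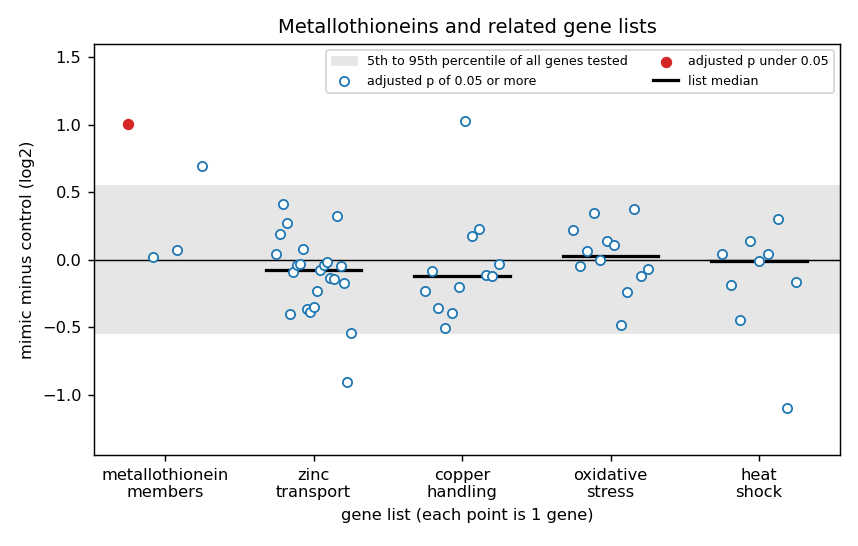
Gene-level difference, mimic minus control on the log2 scale (vertical axis), for the 4 metallothionein genes tested and for 4 related gene lists (horizontal axis), 1 point a gene, with bars at the medians of the 4 related lists. Red is a limma adjusted p under 0.05, open points are the rest, and the grey band is the 5th to 95th percentile over all genes tested, -0.55 to 0.54. MT1A is the 1 red point and MT2A also lies above the band, as does CP of the copper list, which lay near background in both groups. SLC39A8 of the zinc list, at -0.90, and HSPE1 of the heat shock list, at -1.10, lie below the band. MT1A lay near background in both groups and passed the filter through its mimic arrays alone.

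Genes whose pattern over the 4 arrays was closest to a metallothionein were found by the Euclidean distance between log2 profiles, each minus its own mean. For MT2A the closest were ZBTB39 (distance 0.0517), IMPA1 (0.0895), VSIR (0.099), FMR1 (0.111) and DCLRE1C (0.114), with differences of 0.65 to 0.77. For MT1A they were ITGA5 (0.085), INHA (0.127), MVP (0.144), MED12L (0.149) and CPEB2 (0.162), with differences of 0.90 to 1.02. For MT1F the closest was C16orf89 (0.0385), followed by IP6K3, SPMIP4, ALDH3A1 and CR1, and for MT1E it was ZNF101 (0.0922), followed by RMI1, VTI1A, UTP14C and AVPR2. Over only 4 arrays many genes share a pattern, so these names describe likeness in this table.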

How the data were processed

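The authors deposited log2 values for 232479 exon-array probesets on 4 arrays. Partek, RMA and hg18 stand in the submitters' processing notes without versions. The arrays differ in spread (interquartile range 4.18 to 4.52). Probesets naming exactly 1 gene (216780) were used, with older symbols updated through RefSeq. A gene's value was the mean of its probesets whose mean over the arrays reached the table's 25th percentile, 4.08. This left 15719 genes and 174802 probesets, unnamed ones included. The test was limma 3.58.1 under R 4.3.3 (lmFit, eBayes, two-sided, 5.29 degrees of freedom with the prior), tested on simulated data. SD is the spread of 2 arrays and SE limma's. The series' design text describes mimic and control samples as pairs. Replicate differences of the groups correlated with r = 0.435 over genes. The blocked fit is given where it changed a call. The members and lists were chosen with earlier results of these data known. The text names every member, MTF1, SLC30A1, other metallothionein symbols, and for each other list the genes past the threshold and the 4 with the smallest p. Alternatives were the block, quantile normalization, equal array medians, other filters, each array left out, the median or brightest probeset, an intensity trend, robust hyperparameters and a threshold of 0.1. Plots used matplotlib 3.10.9. Precision is limited by having 2 arrays a group.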

Additional observations from a re-analysis of the deposited data

How the results depend on the processing

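The difference of MT2A and that of MT1A stayed above 0 in every alternative that gave a value, from 0.46 to 0.93 and from 0.60 to 1.14, with adjusted p from 0.0115 to 0.398 and from 0.0064 to 0.196. MT1A passed in 8 of 13 alternatives and MT2A in 3 of 14. The count of metallothionein genes called, 1 in the main setting, was 0 with the replicate block, with probesets at or above the table's median (where MT1A is not tested), with the median of probesets and with the brightest probeset, 2 without a filter and with an intensity trend, and 0 to 2 with 1 array left out. Among the alternatives that MT1A passed, the threshold of 0.1 used the main fit unchanged, so the call there was fixed in advance. The one without a filter averaged both MT1A probesets, which lay near background. Every other one kept the filter that MT1A had passed through its mimic arrays alone. The tally of 8 of 13 is therefore no independent support for MT1A. No alternative called a metallothionein probeset. MT1E reversed to -0.018 with quantile normalization and to -0.045 without a filter. With 1 array left out MT1E ranged from -0.34 to 0.38 and MT1F from -0.24 to 0.39. Genes called, 363 in the main setting, numbered 1433 without a filter, 122 with the brightest probeset, 1594 with an intensity trend, 979 at a threshold of 0.1, 498 with the replicate block (338 of them also called without it) and 172 to 1691 with 1 array left out. Of the lists with 0 calls in the main setting, zinc transport had 1 with the block, the table's median, the median of probesets and the threshold of 0.1, 2 without a filter and with a trend, and 0 to 1 with 1 array left out. Copper handling had 1 with the block, 2 without a filter and with a trend, and 0 to 1 with 1 array left out. Oxidative stress had 1 without a filter, with the median of probesets and with a trend, and heat shock 0 to 1 with 1 array left out. For all of these the cause was not tested. The block changed no call of another metallothionein. With 12 of the 14 probesets near background, the arrays say little about MT1A, MT1E, MT1G, MT1H, MT1M and MT1X.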
